A study of Rattus norvegicus with 12 samples.

Results

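The comparison set esophageal tissue of rats sampled at week 29 of N-nitrosomethylbenzylamine (NMBA) carcinogenesis, which the labels call the late stage of tumor development, against tissue sampled at week 6, the early stage. Its members were chosen by sample title and are 6 of the 12 arrays of the study, 3 for each week. RNA was hybridised to an Affymetrix rat expression array, 1 array per sample, and all probe sets were used except the array's own controls. Rats of both weeks had received subcutaneous injections of NMBA, 0.2 ml at 0.3 mg per kg body weight, 3 times per week for 5 weeks. Control rats received the solvent, a mixture of dimethyl sulfoxide and water, on the same schedule, and 3 control arrays and 3 arrays of week 15 complete the study. Rats were kept 3 per cage, and the labels name no strain, sex or age. The weeks are labelled as weeks after NMBA treatment, without saying whether they run from the first or the last injection. The control group carries no week, so nothing here separates the late stage from the greater age of rats sampled later: stage and age cannot be told apart. The labels do not tie an array to an animal of its own, so a p-value here weighs a difference only against the scatter of these arrays, which may be partly technical.

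NMBA is a nitrosamine that is activated in the rat esophagus, methylates DNA there and leads to squamous papillomas and carcinomas. The rat esophagus is lined by a stratified, keratinizing squamous epithelium. Its basal cells divide, move upwards and build a cornified envelope, a layer of cross-linked proteins such as loricrin and the small proline-rich (SPRR) proteins, before they are shed. The wall below holds vessels, nerves, immune cells and, in the rat, skeletal muscle.

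The marker check gave a mixed tissue. The keratins Krt13, of the suprabasal layers, and Krt14, of basal cells, were bright, with log2 signals of 13.17 to 13.87 and 11.94 to 13.17 over the 6 arrays. Acta1, skeletal muscle actin, lay between 14.68 and 14.71 on the same 6 arrays, the bright end of the scale, although the protocol stripped off the submucosa and the muscle layers. The mean signal of 31 skeletal muscle genes (of 32 listed) was 12.38, 12.44 and 12.35 at week 6 and 12.26, 12.52 and 12.56 at week 29. These ranges overlapped, and both weeks lay above the controls at 11.61, 12.08 and 11.77. The 3' minus 5' signal difference of the GAPDH control probe sets, which is larger in degraded RNA, was 0.11 ± 0.04 (SD, n = 3) at week 6, 0.17 ± 0.04 at week 29 and 0.40 ± 0.16 in controls (weeks 6 and 29, exact permutation p = 0.2, two-sided, where 3 against 3 cannot go below 0.1). For beta-actin it was 0.89 ± 0.07 and 0.91 ± 0.02 (exact permutation p = 0.9).

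Replicates 1 and 2 of week 6 correlated at r = 0.9968 across probe sets, and replicate 3 correlated with them at 0.9931 and 0.9920. Week 29 replicate 1 correlated more closely with week 6 replicates 1 and 2 (0.9958 and 0.9945) than with its own replicates 2 and 3 (0.9923 and 0.9908), which correlated with each other at 0.9950. Each r is across probe sets, which are not independent replicates, and is given as a description. Between 13 and 31 of 31042 probe sets had identical values in a pair of the 6 arrays, so no array was treated as a copy of another. Week 6 replicate 3 and week 29 replicate 1 stood apart from the other arrays of their week.

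The question was which genes differ between the early and the late stage. At an adjusted p under 0.05, limma called 0 of 31042 probe sets (0%) and 0 of 14217 named genes, and the lowest adjusted p was 0.172. Without adjustment, 3005 probe sets (9.68%) had a p under 0.05, 2102 of them higher and 903 lower at week 29. This made 70% higher, against 59.5% after quantile normalization and 58.5% without the dimmest 25% of probe sets. The count of called probe sets was also 0 in a fit of the 6 arrays alone, without the week 15 arrays, with the muscle score or the GAPDH value as a covariate, and without any 1 array.

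The intervals, from the fit of all 12 arrays, give the precision of a difference and not the size that the adjusted test could miss. That test left differences as large as that of Myh7, 5.17-fold lower at week 29, uncalled. The median standard error (SE) of a gene's difference was 0.12 on the log2 scale and its 95% interval reached a median of 0.26 to each side. For 13919 of 14217 genes (97.9%) this interval, not adjusted for the number of genes, lay between -1 and 1, that is, within 2-fold in either direction. It lay wholly beyond 0.5 in either direction for 11 genes. The 3 arrays of week 29 lay above all 3 of week 6 for 1327 genes (9.33%) and below all 3 for 913 (6.42%). These shares are the background for the counts of non-overlapping genes given for each group below. With 1 array left out, which makes overlap rarer, the background was 12.8%, 14%, 13.5%, 23%, 12.9% and 13% higher and 9.86%, 10.8%, 11.4%, 18.9%, 12.3% and 8.74% lower, without week 6 replicates 1, 2 and 3 and week 29 replicates 1, 2 and 3 in turn. For many of the lists below, a count with 1 array left out is also given, with the array named. Not every such count is given, and some of those not given lie nearer to the background or below it.

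Direction went with signal. In the dimmest 25% of genes, with mean log2 signals of 2.71 to 5.84, 74.3% of differences were positive, with a median of 0.10, and 744 genes were above and 102 below without overlap. In the brightest 25% of genes 36.3% were positive, with a median of -0.03, and 75 genes were above and 234 below. The part of this tilt in the small positive differences of dim genes was not tested. Of 22 genes that differed at least 2-fold between the group means, 20 were lower and 2 higher at week 29.

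**Figure D1:**
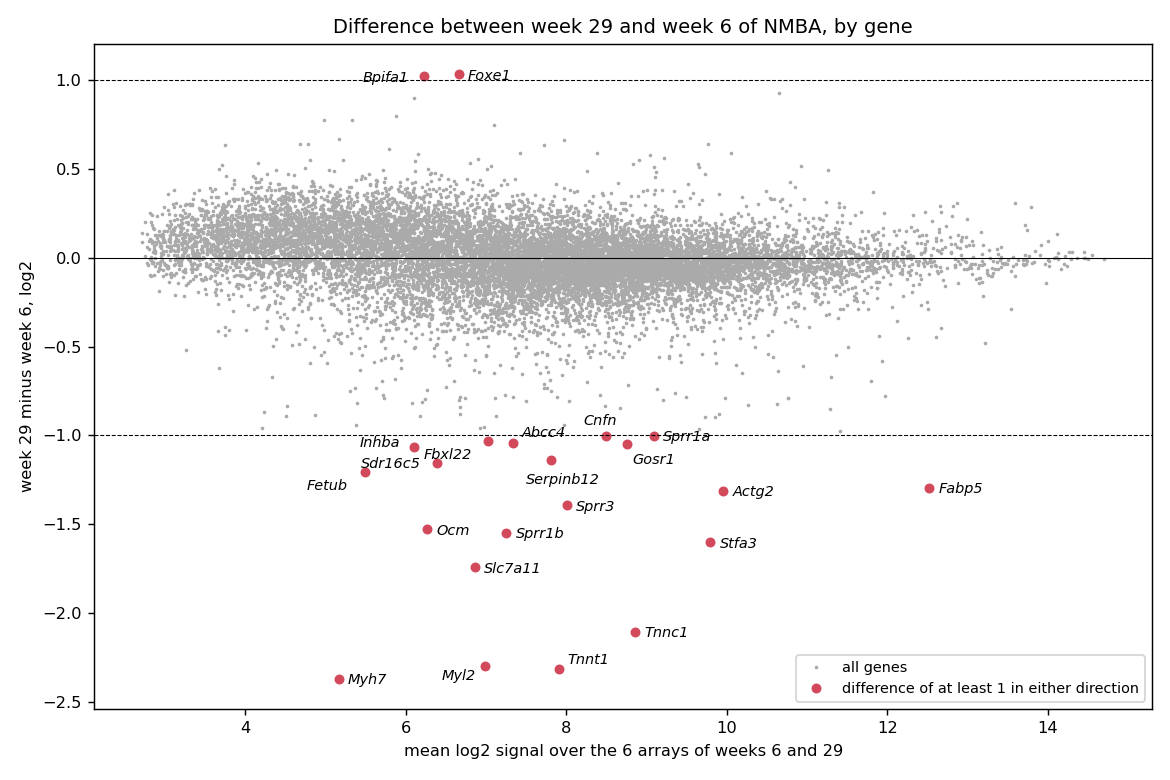
Each point is 1 of 14217 genes, with the mean log2 signal of the 6 arrays on the x axis and week 29 minus week 6 in log2 units on the y axis; dashed lines mark 2-fold. The 22 genes at or past 2-fold are named, 20 of them below and 2 above, and none was called.

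The genes with the lowest p-values were taken as the 10 lowest in each direction, given as values, since none passed the test. Each gene was ranked on its brightest probe set only. Dimmer probe sets of Tent5b (-1.53), Pnpla8 (-0.63) and Syt17 (0.45) had unadjusted limma p-values of 9.97e-05, 0.00014 and 0.000167, lower than some genes named below. The lowest limma p of all, 1.22e-05, was that of a probe set with several gene symbols (-2.12). Among the 10 genes lower at week 29, Slc7a11 had the largest difference. It encodes the cystine transporter that feeds glutathione synthesis. Its log2 signal was 8.05, 7.58 and 7.55 at week 6 and 6.57, 5.90 and 5.48 at week 29, below 8.90, 8.25 and 8.46 in controls. The weeks did not overlap, and the difference was -1.74 ± 0.29 (SE), or 3.35-fold lower, with a 95% interval of -2.37 to -1.11 and an adjusted p of 0.211. Over 22 alternative settings it ran from -2.04 to -1.49, with adjusted p-values of 0.0732 to 0.79.

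Sprr1b, a cornified envelope precursor, had signals of 8.02, 7.64 and 8.42 at week 6 and 6.63, 6.53 and 6.28 at week 29, a difference of -1.55 ± 0.32 (adjusted p = 0.253). Every week 29 array was below every week 6 array, and the controls were at 9.62, 8.52 and 9.14. Fetub, which encodes the protease inhibitor fetuin-B, had 6.02, 6.13 and 6.13 and then 4.77, 5.13 and 4.76 (-1.20 ± 0.21, adjusted p = 0.211). Abcc4, an exporter of cyclic nucleotides and prostaglandins, had 8.13, 7.73 and 7.69 against 7.08, 6.68 and 6.68 (-1.04 ± 0.18, adjusted p = 0.211). For these 3 genes week 6 lay between control and week 29. Their week 15 arrays were above week 6, so the fall was not steady in time. Those arrays had 9.35, 10.33 and 10.55 for Sprr1b, 6.96, 7.71 and 7.91 for Fetub, and 8.38, 8.83 and 9.17 for Abcc4.

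Irf8, a transcription factor of dendritic cells, monocytes and B cells, had signals of 7.30, 7.10 and 7.30 at week 6 and 6.71, 6.62 and 6.44 at week 29 (-0.64 ± 0.10, adjusted p = 0.172). Its controls were at 8.51, 8.32 and 8.24, so these 3 groups had the order control, week 6 and week 29 without overlap. The fall was not steady in time, since the week 15 arrays were above week 6, at 8.19, 8.16 and 8.12. Mt2A, a metallothionein that binds zinc and copper, showed the same order of these 3 groups. It had 10.50, 10.47 and 10.54 at week 6 and 10.19, 9.78 and 9.61 at week 29 (-0.65 ± 0.14, adjusted p = 0.253). Its controls were at 11.12, 10.98 and 11.18, and its week 15 arrays above them at 11.76, 11.45 and 11.70. The week 15 arrays had mean skeletal muscle signals of 10.86, 11.44 and 9.83, below those of weeks 6 and 29. The part of muscle content in these orders was not tested. Myo5a, an unconventional myosin that moves vesicles, had 6.15, 5.99 and 5.99 and then 5.33, 5.27 and 5.46 (-0.69 ± 0.11, adjusted p = 0.172), and its controls at 6.40, 6.14 and 6.25 overlapped week 6.

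Klf6, a zinc finger transcription factor, had signals at week 6 (9.77, 9.70 and 9.71) that overlapped the controls (9.70, 9.73 and 9.52). Its week 29 arrays were lower, at 9.16, 9.22 and 9.04, a difference of -0.58 ± 0.09 from week 6 (adjusted p = 0.172). Gpam, the mitochondrial acyltransferase that starts glycerolipid synthesis, was highest at week 6, with 5.02, 5.00 and 5.00 in controls, 5.77, 5.52 and 5.69 at week 6 and 5.24, 5.19 and 5.19 at week 29 (-0.45 ± 0.09, adjusted p = 0.253). Rprml, reprimo-like, was above the controls (5.93, 5.79 and 5.88) at week 6 with 6.00, 6.18 and 6.17 and below them at week 29 with 5.43, 5.58 and 4.97 (-0.79 ± 0.17, adjusted p = 0.253).

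Among genes higher at week 29, Foxe1, a forkhead transcription factor needed for thyroid and palate development, had the largest difference. Its signal was 6.46, 5.96 and 6.01 at week 6 and 7.19, 7.34 and 7.01 at week 29, a difference of 1.04 ± 0.16, or 2.05-fold, with a 95% interval of 0.69 to 1.38 (adjusted p = 0.172). The week 29 arrays lay in or near the control range of 7.16, 6.89 and 6.87, and the week 6 arrays below it. Ybx2, an RNA-binding Y-box protein of germ cells, had 7.17, 7.20 and 7.01 and then 7.50, 7.71 and 7.93 (0.59 ± 0.12, adjusted p = 0.253), on either side of controls at 7.37, 7.45 and 7.42.

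The other 8 genes of this group were dim or differed by less. Sult1e1, estrogen sulfotransferase, was near the bottom of the scale, at 3.47, 3.43 and 3.44 and then 3.96, 3.92 and 4.03 (0.52 ± 0.08, adjusted p = 0.172). The proton and potassium pump gene Atp12a differed by 0.45, the retinoid-binding protein gene Rlbp1 by 0.47 and Nppa, the atrial natriuretic peptide gene, by 0.43. Lrp3, Smim24, Csdc2 and Lrrc18 differed by 0.43, 0.43, 0.42 and 0.40. Their adjusted p-values were 0.231 to 0.255, and their weeks did not overlap. No sign of any of these 20 differences changed in the 21 or 22 alternatives that gave a value. This follows in part from how they were picked. The weeks did not overlap in any of the 20, so leaving out 1 array could not turn a sign.

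**Figure D2:**
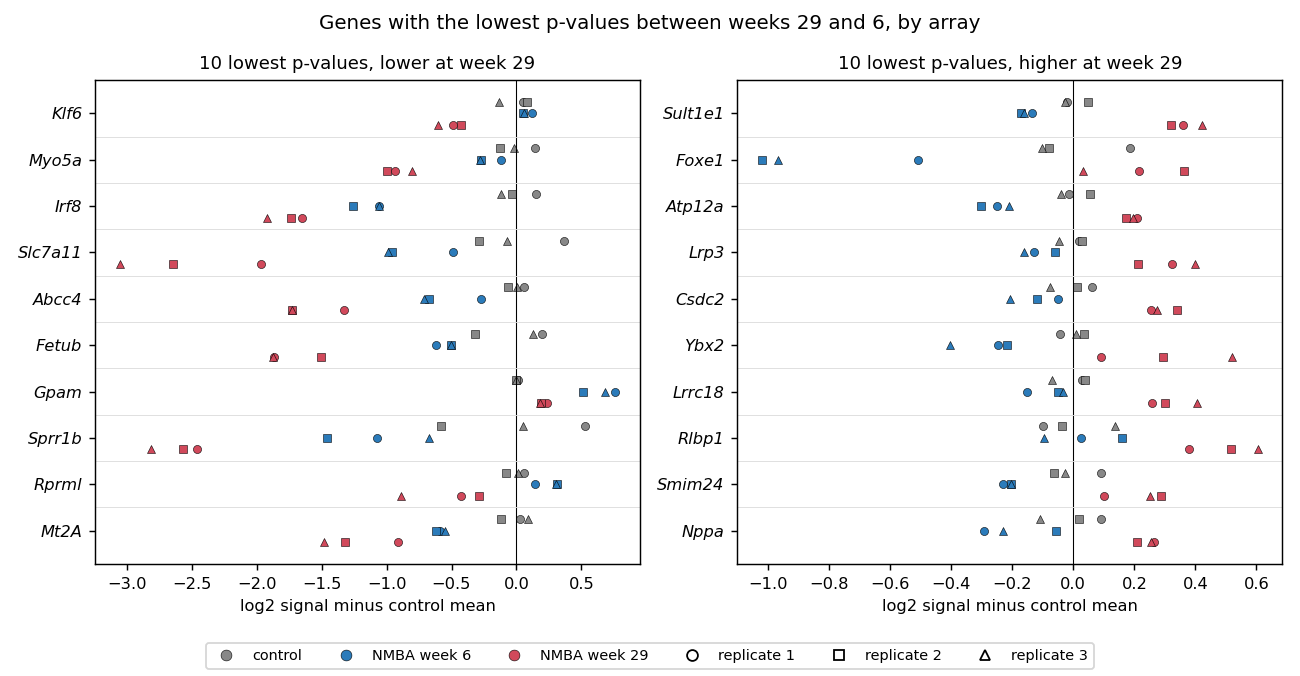
Log2 signal minus the control mean for the 10 genes with the lowest p-values in each direction, 1 symbol per array, coloured by group and shaped by replicate. The 3 week 29 arrays lie wholly to 1 side of the 3 week 6 arrays in all 20 genes, as in Slc7a11 (5.48 to 6.57 against 7.55 to 8.05) and Foxe1 (7.01 to 7.34 against 5.96 to 6.46).

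The gene groups below are lists of markers and pathway members, described by counts and medians. Single genes named in them were chosen after their values were seen, unless they are among the 20 above or the 7 genes that the rule always named (Mki67, Ptgs2, Krt13, Krt14, Cdkn1a, Acta1 and Hbb). limma called 0 members of any of the 36 lists, and the median difference of all genes was -0.0028. In bulk tissue, fewer cells of a type and less RNA per cell cannot be told apart.

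Squamous differentiation genes had a list median of -0.28, with 33 of 43 members negative. The weeks did not overlap for 11 members that were lower (25.6%, background 6.42%) and 3 that were higher (6.98%, background 9.33%). At an unadjusted p under 0.05, 9 of the 43 were lower and 1 higher. Over all 14217 genes 362 were lower and 804 higher at that threshold. The lower ones were led by the protease inhibitor gene Stfa3 and by envelope precursor genes. Stfa3, a stefin that inhibits cathepsins, had signals of 10.27, 10.10 and 11.43 at week 6 and 8.69, 9.53 and 8.76 at week 29 (-1.60 ± 0.43, adjusted p = 0.355). Sprr3, an SPRR protein of the esophageal envelope, had 8.52, 8.29 and 9.29 and then 7.30, 7.50 and 7.12 (-1.39 ± 0.44, adjusted p = 0.379). In both genes replicate 3 was the highest week 6 array, and every week 29 array was below every week 6 array.

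Further non-overlapping members were Cnfn, cornifelin (-1.0), Sprr2d (-0.88), the envelope protein gene Loricrin (-0.88), Tgm1, the transglutaminase that cross-links the envelope (-0.79), suprabasin, Sbsn (-0.79), the kallikrein protease gene Klk8 (-0.55) and the keratin gene Krt78 (-0.77). Sprr1a differed by -1.0 with overlap, since week 6 replicate 2 was at 8.87 and week 29 replicate 1 at 8.98. The higher ones were Tgm5, another transglutaminase (0.46), the airway-type trypsin gene Tmprss11d (0.34) and Evpl, envoplakin (0.21). The abundant keratin Krt13 differed by -0.28 (adjusted p = 0.657), with week 29 replicate 1 at 13.84 among the week 6 values of 13.82, 13.37 and 13.87.

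The list mean was 8.37, 8.14 and 8.73 at week 6 and 8.21, 8.0 and 7.83 at week 29, so the weeks overlapped, and the controls lay at 9.40, 9.13 and 9.10. Without week 29 replicate 1 the number of lower non-overlapping members went from 11 to 25 of 43 (58.1%), while the background over all genes went to 18.9%. Without week 6 replicate 3, the highest week 6 array for this list, it was 11 of 43 against a background of 11.4%. Genes outside the list that were at least 2-fold lower at week 29 included Ocm, the calcium-binding protein oncomodulin (-1.53), Fabp5, the epidermal fatty acid binding protein (-1.29, with overlap), the retinol dehydrogenase gene Sdr16c5 (-1.15) and the protease inhibitor gene Serpinb12 (-1.14).

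**Figure D3:**
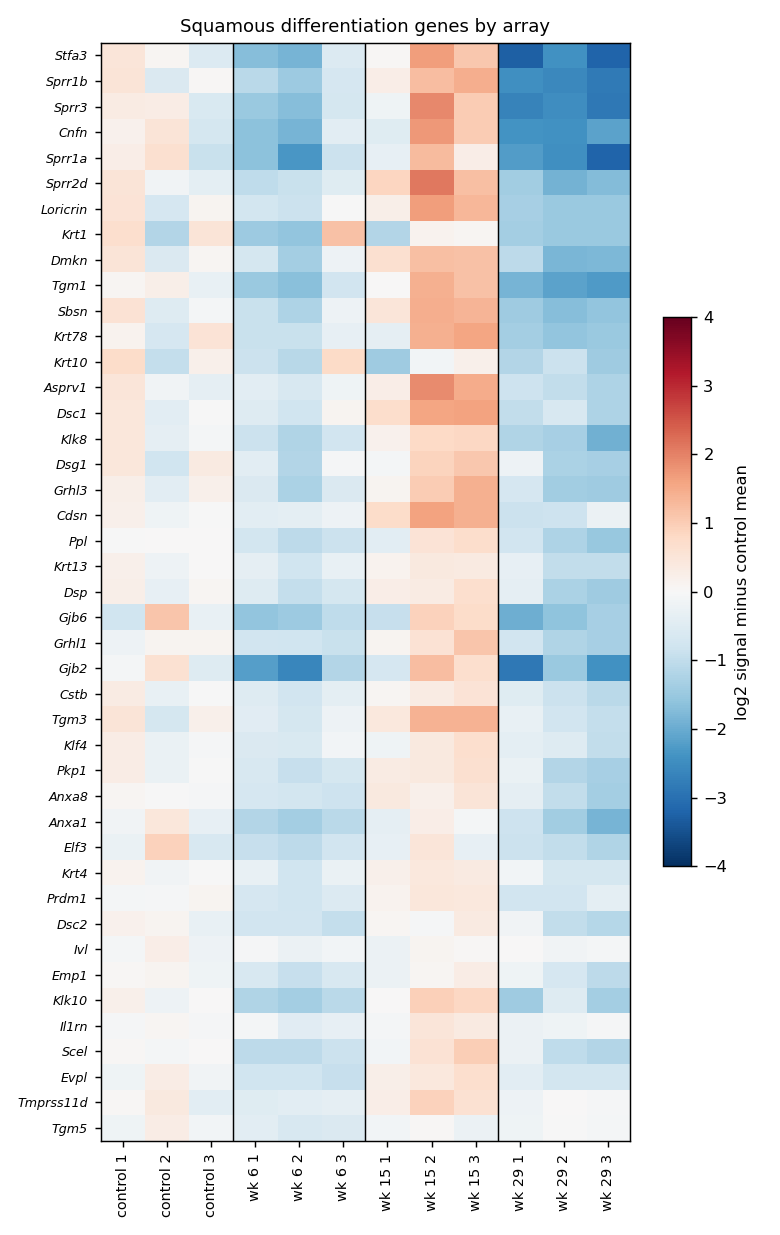
Log2 signal minus the control mean for 43 squamous differentiation genes (rows, in order of their week 29 minus week 6 difference) on each of the 12 arrays; blue is below and red above the control mean. The upper rows, led by Stfa3 (-1.60 between weeks 29 and 6), are bluest at week 29, and week 6 replicate 3 is paler there than replicates 1 and 2.

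Basal keratinocyte genes had a median of -0.09 over 21 members, and 1 member, the laminin-binding integrin gene Itga3 (0.32), was higher without overlap and 0 were lower. The 0 rested on week 29 replicate 1, without which 13 of 21 were lower without overlap (61.9%, background 18.9%). Krt14 differed by -0.39 (adjusted p = 0.616), with week 6 at 12.89, 12.94 and 12.74 and week 29 at 13.17 in replicate 1 and 12.29 and 11.94 in the others. Without replicate 1 it differed by -0.74 and was still not called, with an adjusted p of 0.116 (0.116 to 0.999 over 22 alternatives). The stress keratin and alarmin list had a median of -0.03 over 16 genes, with 3 lower and 2 higher without overlap. There were 5 lower without week 29 replicate 1 (31.2%, background 18.9%) and 4 higher without week 29 replicate 2 (25%, background 12.9%). Defb4, a beta-defensin, was lower at 7.45, 7.38 and 7.68 against 8.29, 8.50 and 8.54 (-0.94 ± 0.30, adjusted p = 0.379). The wound keratin Krt6c had 9.91, 10.08 and 10.53 at week 6 and 10.30, 9.98 and 7.55 at week 29, so its difference of -0.90 rested on replicate 3.

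Proliferation genes had a median of 0.15, with 31 of 36 members positive, but only Cenpe, a mitotic kinesin, did not overlap (0.37). Mki67, the proliferation marker Ki-67, had 8.66, 8.77 and 8.53 at week 6 and 9.46, 8.92 and 8.16 at week 29 (0.19 ± 0.28, adjusted p = 0.863). The late arrays thus spread on both sides of the early ones, and the Mki67 difference was -0.11 without week 29 replicate 1 and 0.54 without replicate 3. Without replicate 3, 29 of 36 members were higher without overlap (80.6%, background 13%), and without replicate 1 the counts were 1 higher and 1 lower. The list mean showed the same spread, with 7.37, 7.40 and 7.48 at week 6, 7.98, 7.65 and 7.06 at week 29 and 8.13, 8.05 and 8.01 in controls. DNA replication genes had a median of -0.07 over 30 members, with 0 non-overlapping. Here too the late arrays pulled apart, with 11 lower (36.7%, background 18.9%) without week 29 replicate 1 and 8 higher (26.7%, background 13%) without replicate 3. Cdkn1a, the cell cycle inhibitor p21, differed by 0.52 (adjusted p = 0.455), with overlap between 10.71, 10.89 and 10.40 and 10.72, 11.31 and 11.52.

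NRF2 and xenobiotic metabolism genes, which make and use glutathione and detoxify reactive compounds, had a median of -0.18 over 34 members, 27 of them negative. Slc7a11 is one of the 5 that were lower without overlap (14.7%), and 2 were higher (5.88%). A different count, of members lower at an unadjusted p under 0.05, was also 5 and included Slc7a11 (362 of 14217 over all genes). Of these, Gclm, a subunit of the enzyme that starts glutathione synthesis, differed by -0.76. The glutathione transferase genes Gsta3 and Gstm1 differed by -0.73 and -0.64 and the sulfiredoxin gene Srxn1 by -0.34. Their unadjusted limma p-values were 0.0309, 0.0273, 0.0252 and 0.0238. Gsta3 overlapped, with 6.49 in week 6 replicate 3 and 6.56 in week 29 replicate 1. Week 29 replicate 1 was the highest late array for Slc7a11, Gclm, Gsta3, Gstm1 and Srxn1. Without it, 21 of the 34 members were lower without overlap (61.8%, background 18.9%), and without week 6 replicate 2 there were 9 (26.5%, background 10.8%). Aldh1a3, an aldehyde dehydrogenase that makes retinoic acid, was higher at 5.39, 5.49 and 5.59 against 5.07, 5.10 and 5.10 (0.40 ± 0.09, adjusted p = 0.307).

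The sterol and fatty acid synthesis list had a median of -0.13 over 28 genes, with 5 lower and 1 higher without overlap, among them Cyp51, a demethylase of cholesterol synthesis (-0.50). The lower count was 16 (57.1%, background 18.9%) without week 29 replicate 1 and 12 (42.9%, background 10.8%) without week 6 replicate 2. Glucocorticoid and metabolic stress genes had a median of -0.14 over 18 genes, with 6 lower (33.3%) and 0 higher without overlap. They were Mt2A, the growth inhibitor gene Ddit4 (-0.56), the transcription factor genes Cebpd (-0.54), Foxo1 (-0.27) and Tsc22d3 (-0.10), and Acadsb, an acyl-CoA dehydrogenase (-0.57). Leaving out week 29 replicate 1 gave 8 lower (44.4%, background 18.9%).

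Several antigen presentation genes were lower at week 29, none of them called. In the MHC class II list, 5 of 9 members were lower without overlap (55.6%) and 1 higher (11.1%), with a median of -0.29. RT1-Da, a class II alpha chain, had 9.30, 9.32 and 10.19 at week 6 and 8.66, 9.09 and 8.65 at week 29 (-0.80 ± 0.28, adjusted p = 0.414). RT1-Db1 (-0.85), RT1-Bb (-0.71) and Cd74, the invariant chain (-0.79), had the same order of arrays, with replicate 3 highest at week 6 and replicate 2 highest at week 29. Ciita, the activator of class II genes, was the higher one, by 0.20 at signals of 6.06 to 6.35. Some RT1 genes resemble each other in sequence, and array probes may not tell such genes apart.

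Interferon response genes had a median of -0.07 over 36 members, with 9 lower (25%) and 1 higher (2.78%) without overlap. Leaving out week 29 replicate 2 gave 13 lower (36.1%, background 12.3%). Leaving out week 29 replicate 1 gave 9 lower (25%), nearer to its background of 18.9%. Psmb9 and Psmb8, subunits of the immunoproteasome, had differences of -0.48 ± 0.14 and -0.44 ± 0.13 (adjusted p = 0.355 each), the antiviral gene Ifi44 -0.48, the guanylate-binding protein gene Gbp2 -0.48 and the chemokine gene Cxcl10 -0.59. The constitutive proteasome list had small differences, with a median of -0.07, but 30 of 33 subunits were negative and 12 were lower without overlap (36.4%), between -0.27 for Psmd11 and -0.06 for Psmc2. Its median was -0.04 after quantile normalization. Leaving out week 29 replicate 2 gave 18 lower subunits without overlap (54.5%, background 12.3%).

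Lymphocyte genes had a median of 0.21, with 19 of 22 positive and 2 non-overlapping, Cd79b of the B cell receptor (0.43) and Cd8b (0.25). The T cell receptor complex gene Cd3d had 5.28, 5.26 and 5.89 at week 6 and 5.68, 7.44 and 5.71 at week 29, so its difference of 0.80 rested on replicate 2. Cd8a was alike, with 6.57 in that array and 4.84 and 4.67 in the others. The count of higher members without overlap was 9 of 22 without week 6 replicate 3 (40.9%, background 13.5%). It was 5 (22.7%) without week 6 replicate 1 (background 12.8%) or week 29 replicate 3 (background 13%). It was 6 (27.3%) without week 29 replicate 1, where the background was 23%. The list was dim, with means of 5.13, 5.09 and 5.30 at week 6 and 5.22, 5.75 and 5.28 at week 29, and the part of the positive tilt of dim genes in its median was not tested. Myeloid and mast cell genes had a median of -0.10 over 27 members, with 3 lower, Irf8 among them, and 1 higher without overlap. Without week 29 replicate 2 the lower count was 11 (40.7%, background 12.3%). Without week 29 replicate 1 it was 3 (11.1%), under the background of 18.9%.

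Endothelial genes had a median of -0.15, with 9 of 25 lower (36%) and 0 higher without overlap. Lower at an unadjusted p under 0.05 were 7 of the 25, against 362 of 14217 over all genes. Sox7, a transcription factor of vessels, had 7.71, 7.48 and 7.80 at week 6 and 7.13, 7.21 and 7.05 at week 29 (-0.54 ± 0.14, adjusted p = 0.325), against 8.52, 8.28 and 8.51 in controls. Plvap, the diaphragm protein of fenestrated vessels, had 9.71, 9.77 and 9.90 and then 9.35, 9.44 and 9.44 (-0.38 ± 0.11, adjusted p = 0.355). Clec14a, an endothelial lectin-type receptor gene (-0.48), and Nos3, endothelial nitric oxide synthase (-0.31), were also below without overlap. The list median was -0.04 without week 29 replicate 1.

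Neural and Schwann cell genes had a median of 0.20, with 4 of 20 higher (20%) and 0 lower without overlap. Sox10, a transcription factor of Schwann cells and enteric glia, had 6.49, 6.18 and 6.49 at week 6 and 6.68, 6.93 and 6.86 at week 29 (0.43 ± 0.12, adjusted p = 0.355). Syp, synaptophysin, differed by 0.42 and Chat, the enzyme that makes acetylcholine, by 0.33. The list mean was 6.57, 6.55 and 6.56 at week 6, and 6.51, 6.80 and 6.92 at week 29, where replicate 1 lay below the early arrays. Without that array 12 of 20 members were higher without overlap, at a background of 23%.

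The largest differences of all were in the slow-twitch muscle program, whose list median was -0.64, with 10 of 10 members negative and 6 lower without overlap (60%). Myh7, the slow myosin heavy chain, had 7.99, 4.83 and 6.23 at week 6 and 3.71, 4.34 and 3.89 at week 29 (-2.37 ± 0.68, adjusted p = 0.355). Tnnt1, slow troponin T, had 9.0, 7.73 and 10.46 and then 7.16, 6.77 and 6.32 (-2.32 ± 0.77, adjusted p = 0.392). Myl2, a slow myosin light chain (-2.30), and Tnnc1, slow troponin C (-2.11), had standard errors of 0.76 and 0.75. The week 6 arrays were far apart from each other in these genes, and replicate 2 was the lowest in all 4. For Myl2 it had 6.48, close to the highest week 29 array at 6.24, whereas replicates 1 and 3 had 8.95 and 8.97. Controls were also far apart, as in Tnnt1 at 6.99, 7.79 and 8.44.

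Other muscle lists had smaller medians. The shared skeletal muscle list had a median of 0.02 over 31 genes, with 1 higher and 1 lower without overlap, and the fast-twitch list 0.04 over 13 genes with 0 non-overlapping. Both counts rested on week 29 replicate 1, without which 21 of 31 shared genes (67.7%) and 6 of 13 fast-twitch genes (46.2%) were higher without overlap, against a background of 23%. Acta1 differed by -0.01 (adjusted p = 0.994). It had the highest signal of all tested probe sets on each of the 6 arrays, so the top of the scale may hide a difference. The fast myosin gene Myh4 had 10.72, 10.78 and 9.06 at week 6 and 10.14, 11.45 and 11.74 at week 29 (0.93, with overlap). Smooth muscle genes had a median of -0.19 over 17 genes with 0 non-overlapping, and without week 6 replicate 1 the count was 7 lower (41.2%, background 9.86%). The smooth muscle actin gene Actg2 had 9.66, 10.18 and 11.99 against 9.71, 8.63 and 9.56, so its difference of -1.31 rested on week 6 replicate 3 and week 29 replicate 2. The beta globin Hbb differed by -0.11 (adjusted p = 0.886). Fibroblast and matrix genes had a median of -0.09, with 1 of 35 non-overlapping. Without week 29 replicate 2 there were 19 lower (54.3%, background 12.3%), but 1 without week 29 replicate 1 (2.86%, background 18.9%).

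Immediate early genes, which cells induce within minutes of a stimulus, had a median of -0.29, with 9 of 26 lower (34.6%) and 1 higher (3.85%) without overlap. The lower count was 13 (50%) without week 29 replicate 1 (background 18.9%) or week 29 replicate 2 (background 12.3%). Ccn2, connective tissue growth factor, had 10.49, 10.46 and 11.06 at week 6 and 9.97, 9.86 and 9.69 at week 29 (-0.83 ± 0.20, adjusted p = 0.316). Its relative Ccn1 (-0.95), the phosphatase gene Dusp1 (-0.60), the stress response gene Ier3 (-0.56) and Zfp36, which promotes decay of cytokine mRNAs (-0.35), were also below without overlap. Fos and Egr1 differed by -0.77 and -0.46 with overlap, and Egr3 was higher by 0.30. The list mean was 7.84, 7.77 and 8.01 at week 6, 7.59, 7.64 and 7.46 at week 29 and from 7.64 to 8.15 in controls.

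The EGFR ligand and AP-1 list had 5 of 24 lower (20.8%) and 1 higher without overlap at a median of -0.10. Without week 6 replicate 2 there were 8 lower (33.3%, background 10.8%). Without week 29 replicate 1 there were 6 lower (25%, background 18.9%). The feedback inhibitor gene Errfi1 was at -0.42 and the ligand gene Hbegf at -0.38. Prostanoid and cytokine genes were split, 5 higher (12.8%) and 4 lower (10.3%) of 39, at a median of -0.01. There were 10 higher without week 6 replicate 3 (25.6%, background 13.5%). Without week 29 replicate 1 there were 8 higher (20.5%), under the background of 23%. Leaving out week 29 replicate 2 gave 9 higher (23.1%, background 12.9%) and 7 lower (17.9%, background 12.3%). Ptgs1, the constitutive cyclooxygenase, had 7.92, 8.03 and 8.44 and then 7.54, 7.31 and 7.33 (-0.73 ± 0.19, adjusted p = 0.349). The inducible Ptgs2 was dim at both weeks, from 2.75 to 3.27, and differed by 0.25 (adjusted p = 0.455). The p53 and DNA damage list had a median of -0.05 over 29 genes, with 1 higher and 2 lower without overlap. Without week 29 replicate 1 there were 4 higher (13.8%, background 23%) and 8 lower (27.6%, background 18.9%). The clock list had a median of -0.09 over 18 genes, with 2 lower, the period gene Per1 (-0.44) and the nuclear receptor gene Rora (-0.38). Without week 6 replicate 3 the clock median was -0.27 and 9 of 18 genes were lower without overlap (50%, background 11.4%), and the labels give no hour of sampling.

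**Figure D4:**
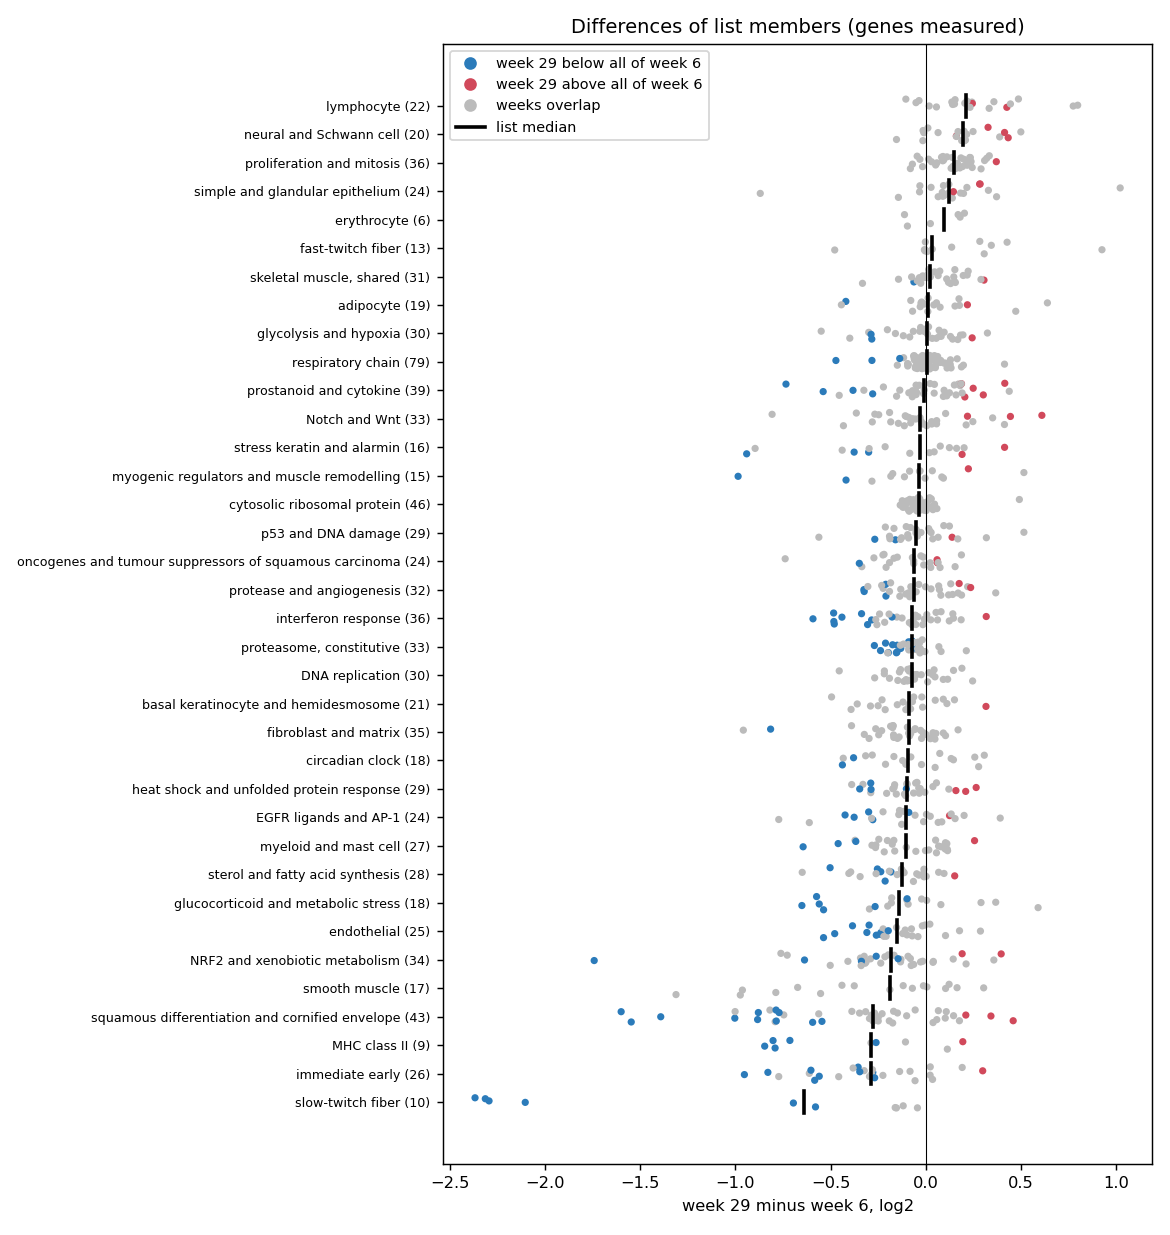
Week 29 minus week 6 in log2 units for the members of 36 gene lists (number measured in brackets), 1 dot per gene, with the list median as a bar. Medians run from -0.64 for slow-twitch fiber genes to 0.21 for lymphocyte genes, and blue or red dots are genes whose 3 arrays of week 29 lie wholly below or above those of week 6.

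Single arrays carried programs that their replicates did not share. Week 6 replicate 3 was at least 1 log2 unit above both other week 6 arrays in 50 genes and below them in 2. Those genes included the salivary proline-rich genes Oprpn (7.16 against 3.63 and 3.19) and Smr3b (6.73 against 3.81 and 3.52), the epidermal keratin gene Krt1 (7.60 against 4.96 and 4.83), the matrix proteoglycan gene Fmod and the foregut homeobox gene Barx1. Week 29 replicate 1 was above both others in 21 genes, among them the keratin gene Krt17 (8.41 against 6.52 and 6.31), and below them in 7. Without that array, 36 of 79 respiratory chain genes were higher without overlap (45.6%, background 23%) and 31 of 46 cytosolic ribosomal protein genes lower (67.4%, background 18.9%), against 0 of either with it. Week 29 replicate 2 was above in 11 genes, T cell genes such as Cd3d, Cd8a, Cd3g and Tcf7 among them. Week 29 replicate 3 was below both others in 5 genes, which included Krt6c and the mitotic kinase gene Ttk, and above in 1, Bpifa1, a secreted airway protein gene (8.53 against 5.43 and 6.24). Bpifa1 and Foxe1 were the 2 genes at least 2-fold higher at week 29. The median SD within a group was 0.10 at week 6 and 0.13 at week 29.

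**Figure D5:**
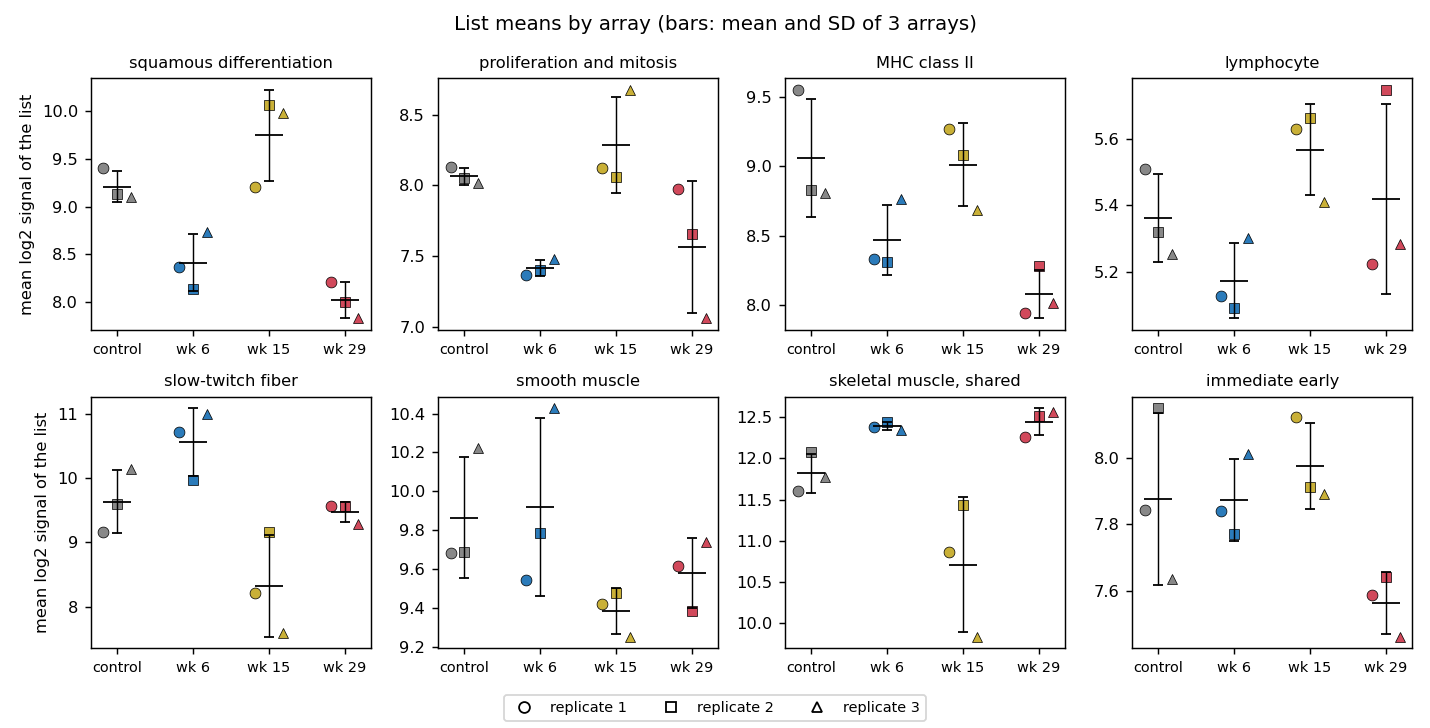
Mean log2 signal of the genes of 8 lists on each of the 12 arrays, by group, with the mean and SD of 3 arrays. Immediate early means of week 29 (7.46 to 7.64) lie below all of week 6 (7.77 to 8.01), whereas proliferation means of week 29 (7.06 to 7.98) lie on both sides of week 6 (7.37 to 7.48).

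Both weeks were also set against the same 3 controls, so the following pairs of values share those arrays. limma called 2342 of 31042 probe sets (7.54%) between week 6 and control and 4705 (15.2%) between week 29 and control. The week 6 count was 3 without control replicate 1, 1 without control replicate 3, 57, 1 and 3 without week 6 replicate 1, 2 or 3, and 1377 without week 29 replicate 2. The week 29 count was 689 and 976 without control replicates 1 and 3, and 769 and 274 without week 29 replicates 2 and 3. For weeks 6 and 29, limma called 1 and 205 probe sets when the muscle score entered the fit, 8 and 132 when the GAPDH value did, and without the week 15 arrays 4028 and 6091. The list medians against control were, for weeks 6 and 29 in turn, -0.75 and -1.01 for squamous differentiation, -0.63 and -0.69 for basal keratinocytes, -0.69 and -0.53 for proliferation and -0.49 and -0.65 for interferon response. They were -0.61 and -0.90 for MHC class II, -0.36 and -0.50 for endothelial genes, 1.03 and -0.06 for slow-twitch fibers and -0.08 and -0.32 for immediate early genes. In each of these pairs the muscle score of both weeks was above that of every control and the GAPDH value below the control mean, and the list medians were not recomputed with either as a covariate.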

How the data were processed

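Values were used as deposited. The authors deposited log2 probe set signals, and the submitters' processing notes name Affymetrix Expression Console, while its version and summarization are not stated in the labels. That the scale is log2 was inferred from the range (2.49 to 14.71). The table had 31099 probe sets, of which 57 array controls were dropped. The platform annotation gave 1 symbol to 20826, several to 436 and none listed for 9780, and 20758 were found in the reference gene table (GRCr8); 1 probe set, the brightest over 12 arrays, stood for each of 14217 genes. No build was named, so no coordinates are given. All columns were mapped (0 left over).

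Differences were tested in 1 limma fit (3.58.1, R 4.3.3) of 4 groups and 12 arrays, with 8 residual degrees of freedom, no dim filter and Benjamini-Hochberg adjustment over 31042 probe sets. The naming rule skipped provisional names and took the 15 largest called differences per direction, up to 4 called members of each list and, where under 10 passed, the 10 lowest p-values per direction, plus 7 fixed genes. Members, lists and rules were chosen with earlier results of these data known. The fit was tested on simulated data with noise drawn independently for each probe set. Programs shared by many genes of 1 array were not simulated, so this test does not bear on the count of 0. Alternatives covered arrays, normalization, filter, variance model, covariates, replicate block and single arrays. Arrays of the 2 weeks with the same number had deviations correlated at 0.13, 0.13 and -0.03, so numbers were not taken as pairs. Signal over background was not assessed here, and precision is limited by how many arrays there are.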

Additional observations from a re-analysis of the deposited data

Results flagged for a closer look

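In 6 of the named genes every week 6 array lay on 1 side of all 3 controls and every week 29 array on the other. Week 6 was below and week 29 above in Sult1e1 (week 29 minus week 6 0.52), Atp12a (0.45), Lrp3 (0.43), Ybx2 (0.59) and Smim24 (0.43). The reverse order held in Rprml (-0.79). The difference itself was the limma contrast of the weeks, which called none of them (adjusted p = 0.172 to 0.255). Among all 14217 genes, 39 showed the first order and 1, Rprml, the second. These genes had been named for their low p-values between the weeks, which favours such an order, and log2 signals lay between 3.43 and 7.93.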

How the results depend on the processing

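Apart from 1 added fit, no alternative called a probe set or a gene between weeks 29 and 6, so the percent of called probe sets that were higher has no value. The fit with a replicate block called 0 (2840 at an unadjusted p under 0.05). An added fit of the 6 arrays alone with a replicate block called 1, a probe set with several gene symbols, unnamed here (7.91, 7.06 and 7.34 at week 29 against 9.94, 9.24 and 9.49 at week 6). The count at an unadjusted p under 0.05 was 1864 without the dimmest 25%, and ran from 1685 (without week 29 replicate 3) to 4293 (without week 29 replicate 1) when 1 array was left out; the share higher was 59.5% after quantile normalization, 58.5% without the dimmest 25% and 57.4% in the added fit. Against control, week 6 gave 4028 without the week 15 arrays, 1 with the muscle score and 8 with the GAPDH value (1 to 3454 without 1 array), and week 29 gave 205 and 132 (274 to 6120). Directions turned for Mki67 (-0.11 without week 29 replicate 1, to 0.54 without replicate 3) and for Acta1 at 0.0019 (array median subtracted), 0.0011 (GAPDH value) and 0.0033 (without week 29 replicate 2, down to -0.014 without replicate 1). Acta1 lay at the top of the scale, so the sign of such small values carries little. Of 324 list medians under alternatives, 14 moved by more than the spread between arrays. The causes were not tested. The alternatives on lists, on unadjusted counts and on the control comparisons were chosen after seeing the data.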
